A study of Homo sapiens with 17 samples.

Results

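The 4 microRNA hairpins described here are MIR10A, MIR10B, MIR99B and MIR125A. They were taken by position in the human build hg19, as every alignment of 18 to 26 nt on the hairpin's strand inside its window extended by 3 nt on each side. Of 5933012 distinct alignments of that length listed in at least 1 table, 248 lay in these windows: 116 in MIR10A, 34 in MIR10B, 59 in MIR99B and 39 in MIR125A.

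The cells were K562, a human erythroleukemia line, with an inducible short hairpin RNA against Drosha (genotype Drosha_shRNA_KD), and small RNA was sequenced. Every group carried this hairpin, the controls included. Cells received 1 μg/mL doxycycline (Dox), which switches the hairpin on, or water in its place, for 3, 13 or 31 d. Dox cells and water cells gave 2 pairs of libraries at 3 d, with replicate numbers 1 and 3, and 3 pairs each at 13 d and 31 d, named as independent biological replicates. Of 17 libraries, 8 were Dox, 8 were water and 1 was untreated; the untreated library was not analysed here. Libraries were gel-purified at 20 to 40 nt, and each Dox library shares 1 deposited table with the water library that has its day and number.

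The value in every table is the authors' ratio of 1 library to the other for each alignment. Which library is on top of the ratio is stated nowhere in the tables or labels. Ratios therefore carry no Dox direction here, and a common direction of all 8 tables is an assumption. Read counts carry no library name and were not used, so that neither the reads per arm nor the depth behind a ratio is given. In bulk libraries such as these, fewer cells with a small RNA and less of it per cell cannot be told apart. A ratio of 0 made up 79.7% to 94.0% of a table's alignments of 18 to 26 nt. The erythroid hairpins MIR451A and MIR144 had 29 to 48 and 18 to 37 listed alignments per table. MIR122, which marks liver, had 4 to 17. These are numbers of distinct alignments, not levels. MIR100, a hairpin compared below, had 6 to 18, so such numbers cannot check the cell type.

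In the canonical pathway Drosha cuts a primary transcript into a hairpin, Dicer removes the loop, and an Argonaute protein keeps either the 5p or the 3p arm as the mature microRNA. The seed, bases 2 to 8 of the mature strand, carries most of the pairing to targets. MIR10A lies among the HOXB genes and MIR10B among the HOXD genes, and both are known for targeting HOX transcripts and for expression that follows the body axis. MIR99B, MIRLET7E and MIR125A lie side by side and are made from 1 primary transcript; paralogous clusters carry MIR99A with MIRLET7C and MIR125B2, and MIR100 with MIRLET7A2 and MIR125B1. The miR-99 family, which includes miR-100, is known for repressing MTOR, and the miR-125 family for its part in blood stem cells and leukemia.

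On hg19 the windows were chr17:46657200-46657309 on the minus strand for MIR10A, chr2:177015031-177015140 on the plus strand for MIR10B, chr19:52195865-52195934 on the plus strand for MIR99B and chr19:52196507-52196592 on the plus strand for MIR125A. Ratios are compared below between arms and between members of 1 seed family. No tested difference between arms passed 0.05 after adjustment, and those within the family were not tested. The mature strands compared are from RefSeq (GRCh38.p14), 5′ to 3′ with the seed in capitals.
miR-10a-5p: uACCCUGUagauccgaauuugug
miR-10a-3p: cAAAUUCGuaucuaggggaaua
miR-10b-3p: aCAGAUUCgauucuaggggaau
miR-99b-5p: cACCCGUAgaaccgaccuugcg
miR-99b-3p: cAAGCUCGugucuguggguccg
miR-125a-5p: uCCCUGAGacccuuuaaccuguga
miR-125a-3p: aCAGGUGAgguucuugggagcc
miR-99a-5p: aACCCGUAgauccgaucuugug
miR-100-5p: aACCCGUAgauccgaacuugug
miR-125b-5p: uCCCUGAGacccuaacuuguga
miR-10b-5p was measured but its sequence is not shown. The seed ACCCGUA is shared by miR-99b-5p, miR-99a-5p and miR-100-5p, and the seed CCCUGAG by miR-125a-5p and miR-125b-5p. The seed ACCCUGU of miR-10a-5p differs from both. Placed by its offset in the hairpin, the mature strand coincided exactly with a listed alignment for all 7 strands of the 4 hairpins above. For 6 of the 7 that alignment had a ratio above 0 in all 8 tables; the exception was miR-10b-3p.

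Each arm was summarised in each table by the median log2 ratio of its alignments with a ratio above 0 in all 8 tables. This left 27 of 70 distinct alignments for the 5p arm of MIR10A, 8 of 46 for its 3p arm, 6 of 30 for MIR10B 5p, 12 of 29 for MIR99B 5p, 9 of 30 for MIR99B 3p, 8 of 23 for MIR125A 5p and 6 of 16 for MIR125A 3p. The 3p arm of MIR10B had 4 distinct alignments and none above 0 in all tables, so 7 of 8 arms could be tested. The arms were fitted with limma together with every other group of at least 3 such alignments in the genome, 1018 features in all. The standard error of an arm therefore draws on the spread of all features as well as on its own tables.

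At 13 d the 5p arm of MIR10A and the 3p arm of MIR99B were lower in the numerator library, and no arm of MIR125A was. At 3 d all 7 arms had ratios above 1 in both tables, and at 31 d none of the 7 passed the test on the deposited scale. From 13 d on, the arms of MIR125A stood above those of its cluster neighbour MIR99B and of the miR-10 hairpins in log2 ratio. The plot of arm medians by table shows the 7 arms side by side.

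**Figure D1:**
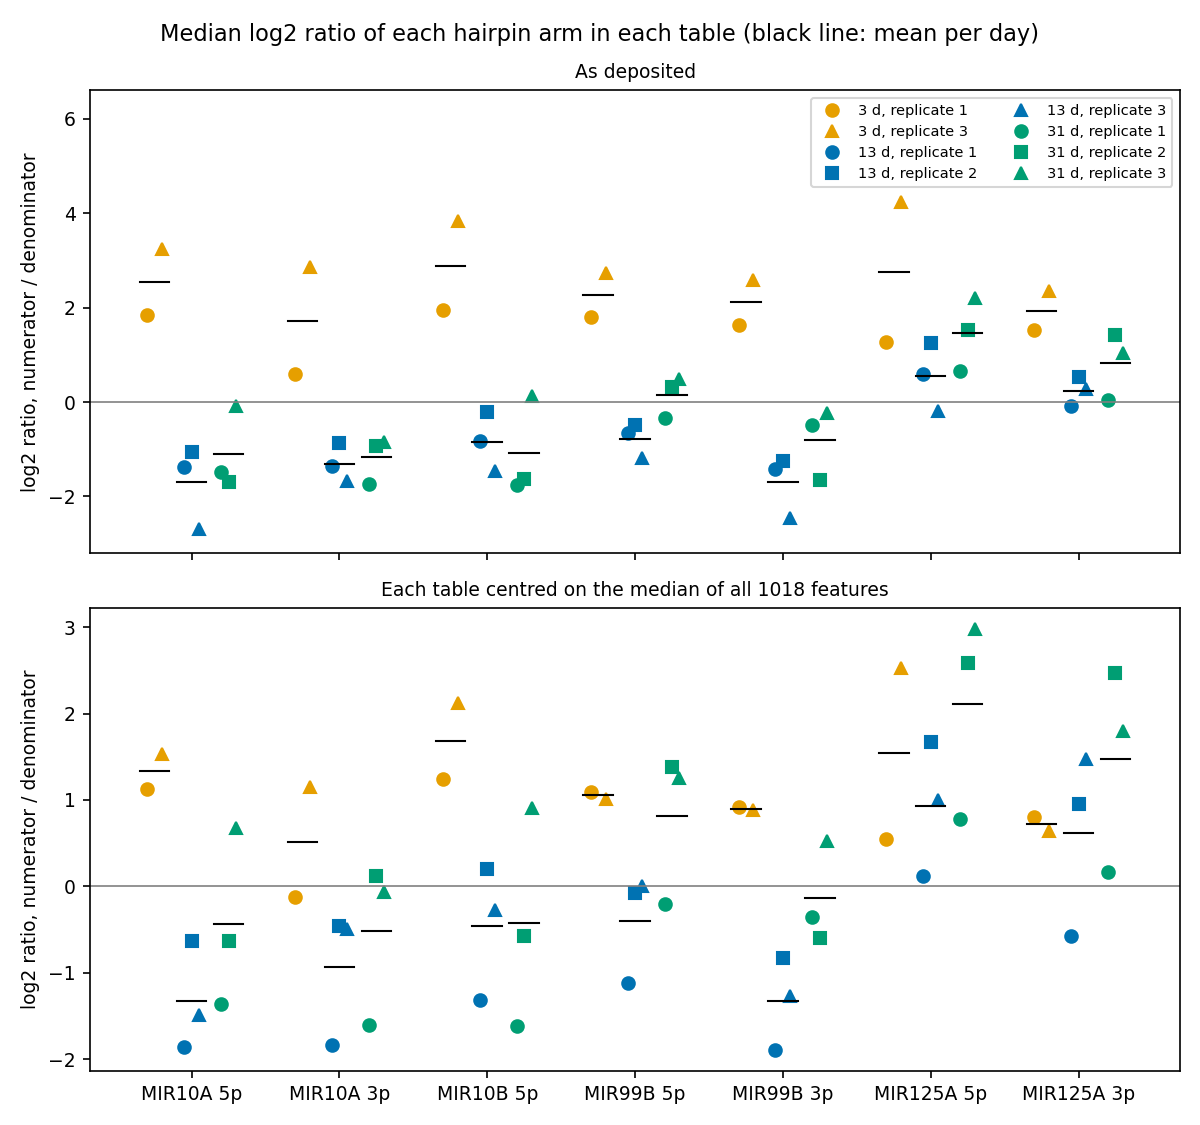
Median log2 ratio (numerator over denominator) of each tested arm in each of the 8 tables, as deposited (top) and after subtracting the table's median over all 1018 features (bottom); colours are days, symbols are replicate numbers and black lines are means per day. On the deposited scale the 3 d points lie above 0 for every arm, the later points of MIR10A and MIR99B 3p lie below 0, and those of MIR125A lie mostly above 0.

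The 5p arm of MIR10A, which gives the main mature strand of this hairpin, had median log2 ratios of 1.84 and 3.24 in the 3 d tables, -1.38, -1.05 and -2.68 in the 13 d tables, and -1.49, -1.70 and -0.09 in the 31 d tables. Both 3 d tables were above 0 and all 6 later tables below it. The mean was -1.70 at 13 d (SE 0.58, limma adjusted p = 0.0218), which passed the test. It was -1.09 at 31 d (SE 0.58, limma adjusted p = 0.156), which did not. The ratio that the authors' deposited tables give for the 23 nt alignment that spans miR-10a-5p was 2.46 and 7.70 in the 3 d tables, 0.384, 0.668 and 0.127 in the 13 d tables, and 0.525, 0.308 and 1.19 in the 31 d tables.

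The 3p arm of MIR10A, the passenger side, followed the same course with 0.59 and 2.86 in the 3 d tables, -1.36, -0.87 and -1.68 in the 13 d tables, and -1.73, -0.94 and -0.84 in the 31 d tables. All 6 later tables were again below 0. The means of -1.30 at 13 d (SE 0.57, limma adjusted p = 0.0709) and -1.17 at 31 d (SE 0.57, limma adjusted p = 0.124) did not pass. The 22 nt alignment spanning miR-10a-3p had, in the authors' deposited tables, ratios of 1.52 and 9.73 in the 3 d tables, 0.143, 0.227 and 0.133 in the 13 d tables, and 0.292, 0.189 and 0.207 in the 31 d tables.

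MIR10B 5p gives miR-10b-5p, a near-identical relative of miR-10a-5p. Its medians were 1.95 and 3.83 in the 3 d tables, -0.84, -0.22 and -1.46 in the 13 d tables, and -1.75, -1.63 and 0.13 in the 31 d tables. One later table, 31 d replicate 3, was above 0, and neither 13 d (mean -0.84, SE 0.59, limma adjusted p = 0.273) nor 31 d (mean -1.08, SE 0.59, limma adjusted p = 0.170) passed. The sources used here do not say how reads that align to more than 1 place were assigned, and reads of the mature strands of these near-identical relatives could be split between them, so the difference between MIR10A and MIR10B is uncertain. The 3p arm of MIR10B was listed in 4 of the later tables, with 1 to 3 alignments each, and its ratios were above 0 in 2 of them, 31 d replicates 2 and 3. The 22 nt alignment spanning miR-10b-3p was listed in 2 of the authors' deposited tables, with ratios of 0 and 0.891.

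MIR99B 5p gives miR-99b-5p, of the miR-99 seed family. Its medians were 1.80 and 2.72 in the 3 d tables, -0.65, -0.49 and -1.18 in the 13 d tables, and -0.33, 0.32 and 0.48 in the 31 d tables. All 3 tables of 13 d were below 0, and those of 31 d lay on both sides of it. The means of -0.78 at 13 d (SE 0.54, limma adjusted p = 0.264) and 0.16 at 31 d (SE 0.54, limma adjusted p = 0.844) did not pass.

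MIR99B 3p, the opposite strand of the same hairpin, had 1.63 and 2.59 in the 3 d tables, -1.41, -1.25 and -2.45 in the 13 d tables, and -0.49, -1.66 and -0.24 in the 31 d tables. All 6 later tables were below 0. The mean of -1.71 at 13 d (SE 0.56, limma adjusted p = 0.0174) passed, and that of -0.80 at 31 d (SE 0.56, limma adjusted p = 0.294) did not. The alignment spanning miR-99b-3p had, in the authors' deposited tables, ratios of 6.67 and 6.01 in the 3 d tables, 0.233, 0.218 and 0.185 in the 13 d tables, and 0.414, 0.151 and 0.357 in the 31 d tables, and the one spanning miR-99b-5p had 4.20 and 6.79, then 0.518, 0.903 and 0.307, then 0.614, 0.677 and 0.912.

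MIR125A 5p gives miR-125a-5p, the main mature strand of this hairpin. Its medians were 1.26 and 4.24 in the 3 d tables, 0.60, 1.25 and -0.19 in the 13 d tables, and 0.65, 1.52 and 2.21 in the 31 d tables. Only 1 of 8 tables, 13 d replicate 3, was below 0. The mean was 0.55 at 13 d (SE 0.62, limma adjusted p = 0.503) and 1.46 at 31 d (SE 0.62, limma adjusted p = 0.0722). The 24 nt alignment spanning miR-125a-5p had, in the authors' deposited tables, ratios of 2.76 and 22.7 in the 3 d tables, 1.87, 4.18 and 1.21 in the 13 d tables, and 2.13, 2.36 and 5.42 in the 31 d tables, above 1 in every table.

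MIR125A 3p had medians of 1.52 and 2.35 in the 3 d tables, -0.09, 0.54 and 0.29 in the 13 d tables, and 0.03, 1.41 and 1.03 in the 31 d tables. The lowest of the 8 tables was 13 d replicate 1, just under 0. Its means of 0.24 at 13 d (SE 0.55, limma adjusted p = 0.745) and 0.82 at 31 d (SE 0.55, limma adjusted p = 0.262) did not pass. In the authors' deposited tables the ratio of the alignment spanning miR-125a-3p was 13.7 and 29.9 in the 3 d tables, 1.06, 1.17 and 1.09 in the 13 d tables, and 0.906, 1.46 and 2.25 in the 31 d tables.

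At 3 d 6 of 7 arms were called higher in the numerator library at a limma adjusted p of 0.05 or less, against 30.2% of all features. The mean log2 ratios were 2.54 for MIR10A 5p (SE 0.71, limma adjusted p = 0.0122), 2.89 for MIR10B 5p (SE 0.73, limma adjusted p = 0.00671), 2.26 for MIR99B 5p (SE 0.66, limma adjusted p = 0.0150), 2.11 for MIR99B 3p (SE 0.69, limma adjusted p = 0.0244), 2.75 for MIR125A 5p (SE 0.76, limma adjusted p = 0.0111) and 1.93 for MIR125A 3p (SE 0.67, limma adjusted p = 0.0321). MIR10A 3p, at 1.73 (SE 0.70, limma adjusted p = 0.0581), did not pass. The 3 d tables themselves were shifted: their medians over all features were 0.71 and 1.71, against 0.48, -0.42 and -1.19 at 13 d and -0.13, -1.06 and -0.77 at 31 d. Centred on these medians, 0 of 7 arms were called at 3 d, by limma at the same threshold, where 9.04% of features were called higher and 392 features had an unadjusted p below 0.05. The calls also rest on 1 table, since without 3 d replicate 3 none of the arms passed.

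At 13 d 2 of 7 arms were called lower, MIR10A 5p and MIR99B 3p, against 30.9% of all features called lower and 13.9% called higher. The share among the arms is close to the background. Centring kept both calls, at -1.33 for MIR10A 5p (limma adjusted p = 0.0358) and -1.33 for MIR99B 3p (limma adjusted p = 0.0211), where 29.1% of features were called lower. Without 13 d replicate 3, the lowest of the 3 tables for both arms on the deposited scale, neither arm passed.

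At 31 d 0 of 7 arms were called by limma, against 7.27% of features called higher and 28.8% called lower; 441 features had an unadjusted p below 0.05. After centring, both arms of MIR125A were called higher, at 2.12 for the 5p arm (limma adjusted p = 0.0112) and 1.48 for the 3p arm (limma adjusted p = 0.0475), where 15.8% of features were. Before centring MIR125A 5p exceeded 91.9% of all features in its mean log2 ratio at 31 d and MIR125A 3p exceeded 84.8%. The arms of the miR-10 hairpins exceeded 36.7% to 38.8%. A high rank was not particular to MIR125A. In the related clusters MIRLET7A2 5p exceeded 93.7%, MIRLET7E 5p 87.7% and MIRLET7C 5p 85.5%, while MIR100 5p exceeded 75.3% and MIR99A 5p 11.8%. Over the 7 arms the median was 2.26, -0.84 and -0.80 on the 3 days in order, against 1.22, -0.32 and -0.62 over all features on the same days.

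**Figure D2:**
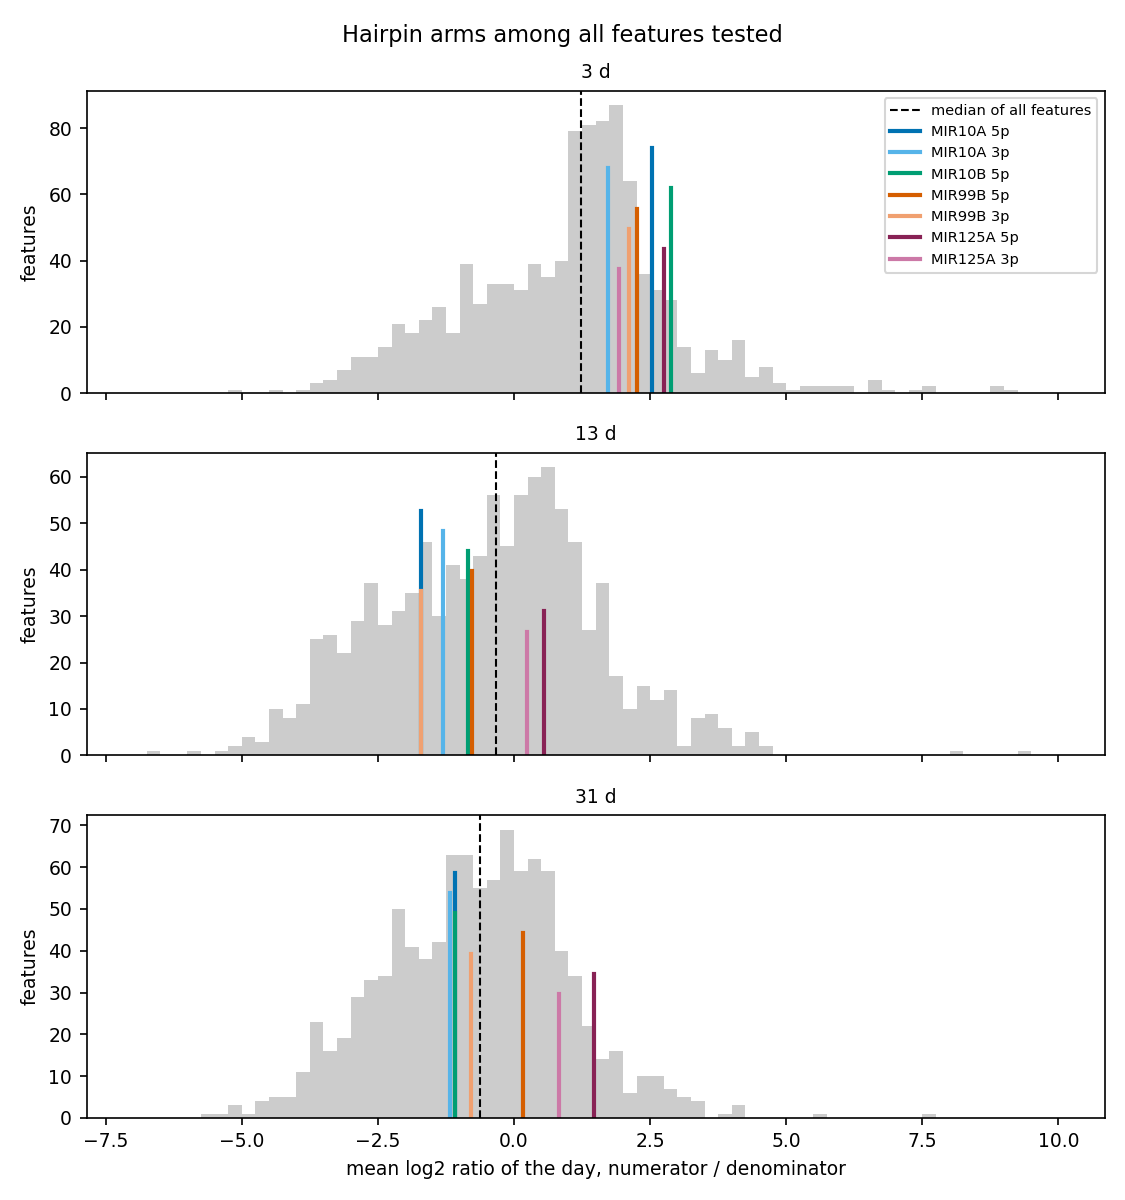
Mean log2 ratio of each day for the 7 arms (coloured lines) over the distribution of all 1018 features tested (grey bars count features; the dashed line is their median). The arms lie together above the median at 3 d; at 13 d and 31 d the lines of MIR125A lie above it and those of the miR-10 hairpins below it.

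Between days, 5 of 7 arms were lower at 13 d than at 3 d, against 39.7% of all features, and the same 5 were lower at 31 d than at 3 d, against 42.5%. They were both tested arms of MIR10A, MIR10B 5p and both arms of MIR99B, with log2 differences of -3.03 to -4.25 for 13 d minus 3 d and of -2.11 to -3.97 for 31 d minus 3 d. The arms of MIR125A did not pass in either contrast: the 5p arm differed by -2.20 (SE 0.98, limma adjusted p = 0.0754) and -1.29 (SE 0.98, limma adjusted p = 0.287). Its 3p arm differed by -1.69 (SE 0.86, limma adjusted p = 0.119) and -1.11 (SE 0.86, limma adjusted p = 0.300). After centring 3 arms remained lower at 13 d than at 3 d, MIR10A 5p, MIR10B 5p and MIR99B 3p, against 27.7% of features, and 0 arms differed between 31 d and 3 d by limma, where 22.8% of features were called lower and 582 had an unadjusted p below 0.05. The contrasts share the 3 d tables. Between 31 d and 13 d no feature was called by limma, and 126 of 1018 had an unadjusted p below 0.05.

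A single scaling factor per table cancels in the difference between arms of the same table, though a centring by length does not. These differences were tested over the 6 tables of 13 d and 31 d on the alignments with a ratio above 0 in all 6. MIR125A 5p exceeded MIR99B 5p, from the same primary transcript, by 1.23, 1.88 and 1.20 at 13 d and by 1.05, 1.49 and 1.55 at 31 d on the log2 scale. The mean difference was 1.40 ± 0.30 (SD, n = 6 tables), above 0 in 6 of 6 tables (exact sign-flip permutation test, two-sided, p = 0.03125, adjusted p = 0.0521 over 5 tests). This p is the smallest that 6 tables allow, and none of the 5 differences passed 0.05 after adjustment. Centred by length, the mean was 1.70, and with the mature 5′ end alone 1.71, again above 0 in 6 of 6 tables under each.

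The 5p arm of MIR99B exceeded its 3p arm by 0.77, 0.75 and 1.27 at 13 d and by 0.15, 1.97 and 0.73 at 31 d. The mean was 0.94 ± 0.62 (SD, n = 6), above 0 in 6 of 6 tables (exact permutation p = 0.03125, adjusted p = 0.0521). It was 0.50 with alignments at the mature 5′ end alone, above 0 in 5 of 6 tables (exact permutation, adjusted p = 0.156), and 0.62 centred by length. MIR10A 5p lay below MIR10B 5p by -0.67, -1.21 and -0.97 at 13 d, whereas the differences of -0.0030, -0.33 and -0.22 at 31 d were small; the mean was -0.57 ± 0.47 (SD, n = 6), below 0 in 6 of 6 tables (exact permutation p = 0.03125, adjusted p = 0.0521). With the mature 5′ end alone it was -0.27, below 0 in 3 of 6 tables, and centred by length it was -0.86, below 0 in 5 of 6. No mature position of miR-10b-5p was available. For MIR10B the upstream one of 2 adjacent ends, with 3 alignments each, was used in its place. MIR125A 5p exceeded MIR125A 3p in 5 of 6 tables by 0.42 ± 0.51 (SD; exact permutation p = 0.09375, adjusted p = 0.117). The arms of MIR10A differed by -0.16 ± 0.59 (SD; exact permutation p = 0.531), with 2 of 6 tables above 0. A difference between the arms of MIR10B could not be formed.

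**Figure D3:**
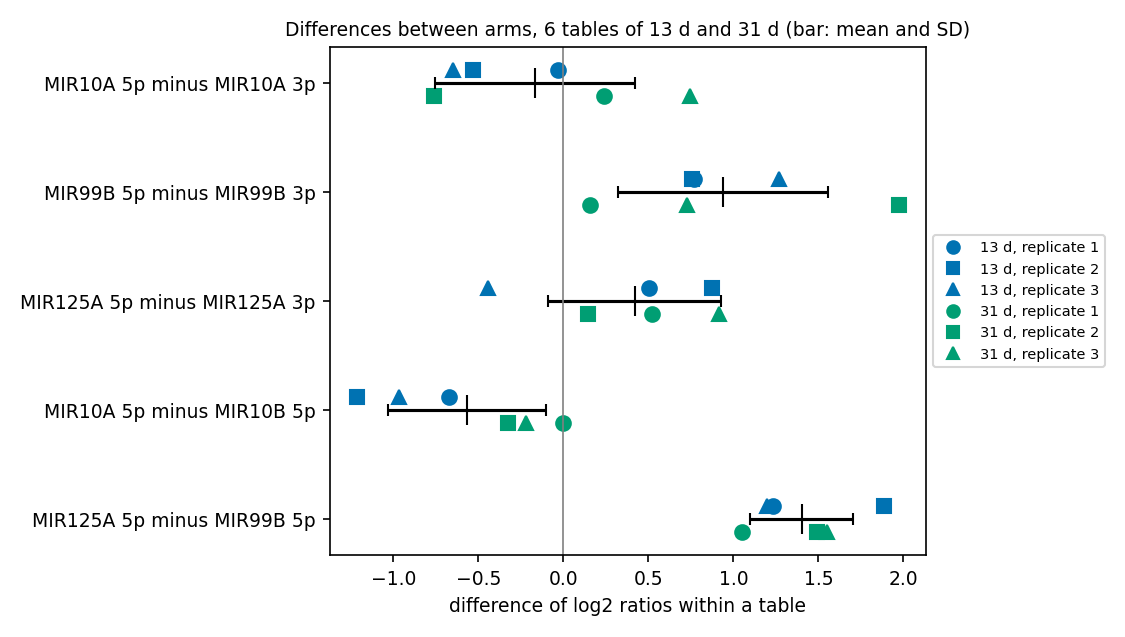
Difference of log2 ratios between 2 arms within each of the 6 tables of 13 d and 31 d (points) with the mean and SD (bars). All points lie on 1 side of 0 for MIR99B 5p minus MIR99B 3p, MIR10A 5p minus MIR10B 5p and MIR125A 5p minus MIR99B 5p, and the last has the narrowest spread.

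Among alignments above 0 in every table, the 5′ ends varied between arms. In the 5p arm of MIR125A all 8 of these began at the mature 5′ end. Of the 23 distinct alignments of that arm listed in any table, 9 began there. The 3p arm of MIR125A had 4 at the mature end and 2 at 1 nt after it. In the 5p arm of MIR10A, 9 began at the mature end, 5 at 1 nt before it, 8 at 1 nt after it and 3 at 2 nt after it. The 5p arm of MIR10B had 3 alignments at each of 2 adjacent ends. MIR99B 5p had 8 at the mature end and 4 at 1 nt after it. These count distinct alignments and not reads. A shift of 1 nt moves the seed, and for miR-99b-5p it turns ACCCGUA into CCCGUAG.
miR-99b-5p, mature end: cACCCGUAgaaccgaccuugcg
miR-99b-5p, end shifted by 1 nt: aCCCGUAGaaccgaccuugcg

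The MIR99B 5p alignments with the shifted end had higher ratios than those with the mature end from 13 d on; this pair was chosen after the values were seen and was not tested. The shifted end had median log2 ratios of 1.57 and 2.86 in the 3 d tables, -0.07, 0.34 and -0.01 in the 13 d tables, and 1.18, 1.92 and 1.84 in the 31 d tables. The mature end had 1.88 and 2.72 in the 3 d tables, -0.83, -0.84 and -1.70 in the 13 d tables, and -0.55, -0.45 and 0.14 in the 31 d tables. The shifted end exceeded the mature end in 6 of 6 later tables, by 1.57 ± 0.55 (SD), and at 3 d the difference was -0.31 and 0.14. Over the 4 lengths that both ends had, 19 to 22 nt, the later difference was 1.53 ± 0.41 (SD, n = 6), again above 0 in 6 of 6. Other arms did not share this direction. The same shift in MIR10A 5p gave -1.59, -1.51 and -3.19 at 13 d and -1.57, -1.37 and -0.64 at 31 d, below its mature end in every later table. For MIR99B 3p, with 1 shifted alignment, it was below in all later tables but 31 d replicate 2. For MIR125A 3p it was above at 13 d and mixed at 31 d, and for MIR10A 3p mixed on both days. The difference between MIR125A 5p and MIR99B 5p given above pools both ends of MIR99B.

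MIR10A also had alignments that end exactly where its 5p arm begins, on the flank side of the Drosha cut. They are shown in the hairpin, with both mature arms in capitals, because their ratios differed from those of the arms.
MIR10A hairpin: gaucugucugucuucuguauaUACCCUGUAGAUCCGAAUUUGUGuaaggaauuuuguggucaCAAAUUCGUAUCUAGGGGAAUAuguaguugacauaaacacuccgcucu
fragment of 20 nt: aucugucugucuucuguaua
fragment of 19 nt: ucugucugucuucuguaua
These 2 alignments are counted in the 5p arm above by the midpoint rule and were picked out after their values were seen. In the authors' deposited tables both had ratios above 0 in all 8 tables. Their median log2 ratio was 2.02 and 1.98 in the 3 d tables, -2.87, -3.17 and -2.94 in the 13 d tables, and -2.72, -2.91 and -3.39 in the 31 d tables. Each median is the midpoint of 2 values that spread more widely. The fragment of 19 nt had -1.31, -3.38 and -3.83 at 13 d and -2.99, -2.34 and -3.96 at 31 d. That of 20 nt had -4.42, -2.97 and -2.05 at 13 d and -2.45, -3.48 and -2.82 at 31 d. The 9 alignments at the mature 5p end had 1.86 and 3.50 in the 3 d tables, -1.20, -0.92 and -2.18 in the 13 d tables, and -1.001, -1.001 and 0.25 in the 31 d tables. The median of the 2 fragments lay below that of the mature end in 6 of 6 later tables, by -1.99 ± 0.95 (SD, n = 6) on the log2 scale, and no test was made. In 13 d replicate 1 the fragment of 19 nt, at -1.31, was close to the mature end, at -1.20. On the opposite strand of the MIR10A window 1 to 5 alignments were listed per table, 14 distinct ones in all, and on that of MIR10B 1 in all.

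**Figure D4:**
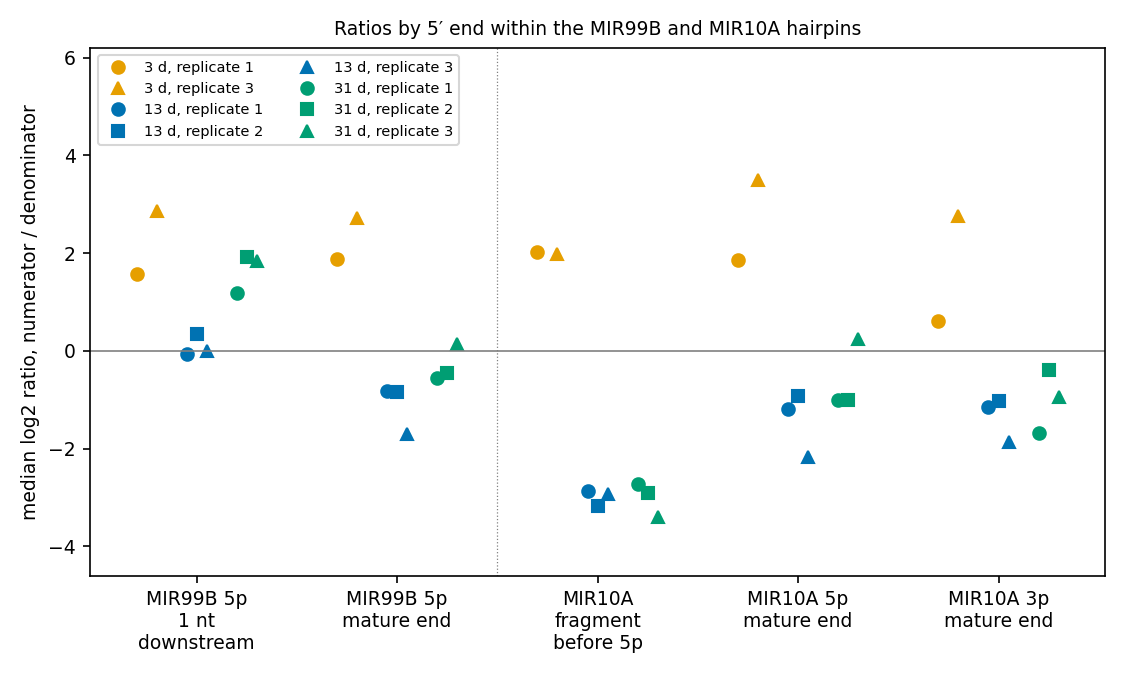
Median log2 ratio in each table of alignments grouped by 5′ end, for MIR99B 5p (left) and MIR10A (right); colours are days and symbols replicate numbers. The 6 later points of the shifted MIR99B end lie between -0.07 and 1.92, above the mature end in every table, and those of the MIR10A fragment lie between -3.39 and -2.72. Each point of the fragment is the midpoint of 2 alignments whose own values spread more widely.

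The ratio also varied with the length of the alignment. Among alignments that begin at the mature 5′ end, the log2 ratio of MIR10A 5p in 31 d replicate 2 was 1.43 at 18 nt and -5.21 at 26 nt. In the same table MIR125A 5p had 3.83 at 19 nt and -1.07 at 26 nt, MIR99B 5p had 0.45 at 18 nt and -3.83 at 25 nt, and MIR99B 3p had 0.46 at 19 nt and -3.79 at 26 nt. All alignments of these lengths shared this course: their median in 31 d replicate 2 was 0.96 at 18 nt and -3.44 at 26 nt. In that table the longest alignment was below the shortest in all 7 arms, by -1.35 to -6.64 on the log2 scale. In 13 d replicate 3 the same difference ran from -2.47 for MIR10A 5p to 1.21 for MIR125A 3p, while all alignments of the lengths of these arms differed by -1.77 and -2.07. In 3 d replicate 3 all alignments of the lengths of MIR10A 5p differed by -2.30, and MIR10A 5p itself by -0.58. In every table other than 31 d replicate 2 the sign of this change differed between the 7 arms. With each table centred by length, an alternative added after the data were seen, the calls at 13 d were MIR10A 5p at -1.36 (limma adjusted p = 0.0197) and MIR99B 3p at -1.38 (limma adjusted p = 0.0100). The calls at 31 d were MIR125A 5p at 2.39 (limma adjusted p = 0.00797) and MIR125A 3p at 1.38 (limma adjusted p = 0.0312). Of all 1018 features, 310 were called lower at 13 d and 198 higher at 31 d with this centring.

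For MIR99B 3p the ratio differed between lengths around that of the mature strand. At 22 nt, the length of mature miR-99b-3p, its log2 ratio was -2.10, -2.19 and -2.44 at 13 d and -1.27, -2.72 and -1.49 at 31 d. At 20 nt the same 5′ end gave 0.15, -0.14 and -0.77 at 13 d and 0.29, 0.05 and 0.19 at 31 d. The 22 nt form was thus below the 20 nt form in 6 of 6 later tables, lengths that were picked after the values were seen. All alignments had medians of -0.15, -0.70, -1.79, -0.59, -1.68 and -1.14 at 22 nt in the same 6 tables, and of 0.54, -0.51, -0.73, -0.26, -0.34 and -0.62 at 20 nt, lower at 22 nt in all 6. MIR10A 3p was likewise lower at 22 nt, with -2.81, -2.14, -2.91, -1.78, -2.40 and -2.27, than at 20 nt, with -0.54, -0.38, -1.50, -1.57, -0.33 and -0.72.

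**Figure D5:**
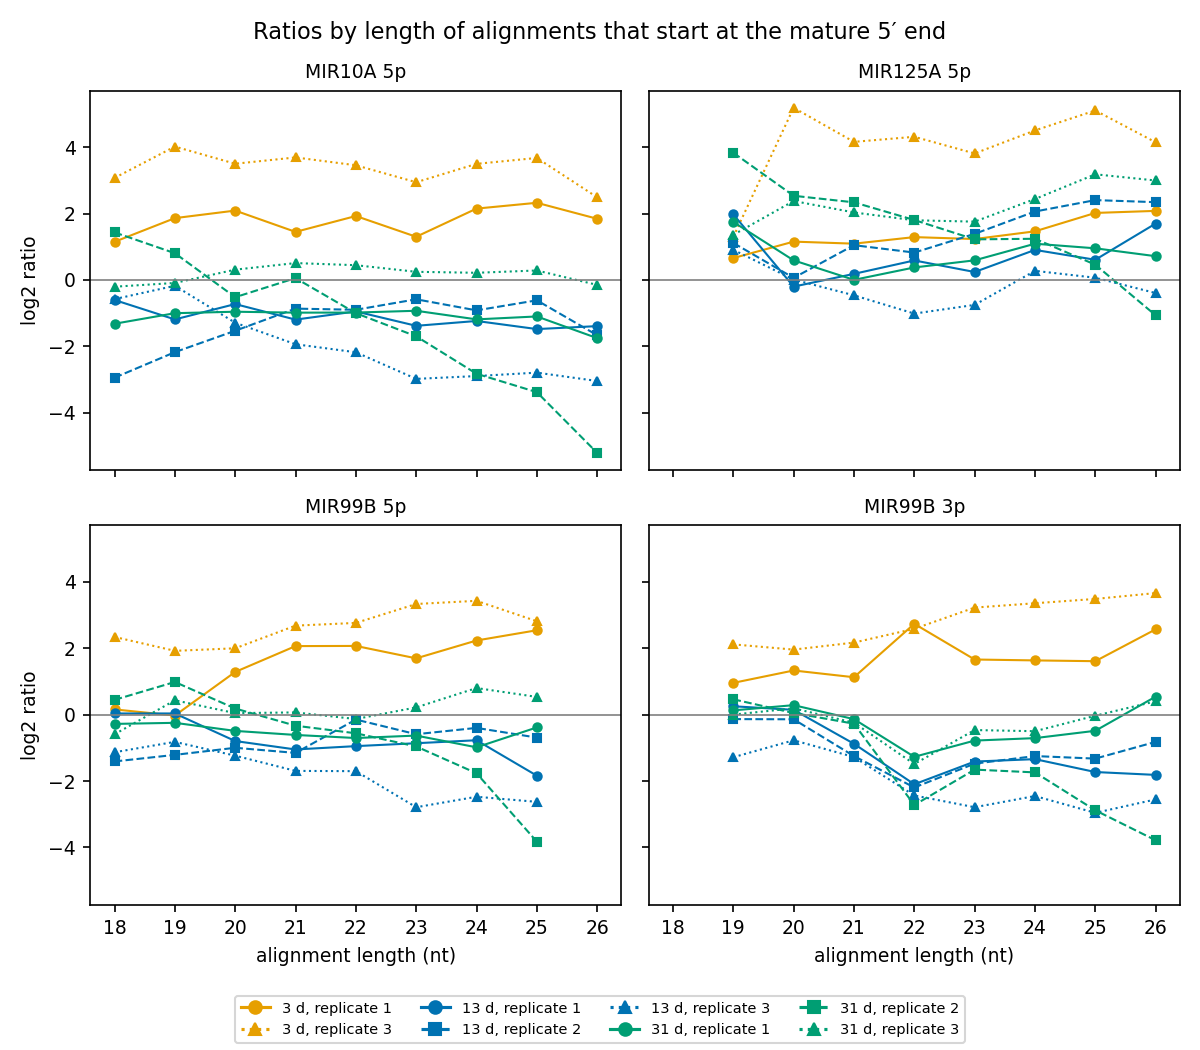
Log2 ratio of single alignments that begin at the mature 5′ end against their length in nt, for 4 arms; each line is 1 of the 8 tables. The line of 31 d replicate 2 has its lowest value at the longest alignment in all 4 panels, -5.21 for MIR10A 5p.

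The related hairpins of the 3 clusters were measured for comparison; 5 of their 14 arms, all 5p, had the 3 alignments needed for the test. MIRLET7E 5p, which lies between MIR99B and MIR125A and gives let-7e-5p of the let-7 family, had medians of 0.89 and 1.32 in the 3 d tables, 0.05, 0.99 and -1.11 in the 13 d tables, and 0.64, 1.23 and 1.32 in the 31 d tables. In 5 of 6 later tables it stood above 0. Its mean did not pass at any day on the deposited scale, and after centring it passed at 31 d with 1.72 (limma adjusted p = 0.0159).

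Within the seed family of miR-99b-5p the ratios diverged. MIR99A 5p had 1.14 and 1.60 in the 3 d tables, -2.08, -1.43 and -4.04 in the 13 d tables, and -0.87, -4.47 and -2.88 in the 31 d tables. It was called lower at 13 d (mean -2.52, SE 0.67, limma adjusted p = 0.00411) and at 31 d (mean -2.74, SE 0.67, limma adjusted p = 0.00282), below 0 in 6 of 6 later tables. MIR100 5p, whose mature strand is near-identical to that of MIR99A so that reads could be split between them, had 1.97 and 1.73 in the 3 d tables, 0.79, -0.15 and 0.87 in the 13 d tables, and -0.51, -0.08 and 1.90 in the 31 d tables. Its later tables lay on both sides of 0, and its means of 0.50 and 0.44 did not pass. The differences between the 3 members of the family were not tested.

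MIRLET7A2 5p, whose mature strand let-7a-5p comes from several loci, was above 0 in all 8 tables and called higher at 3 d (mean 2.28, SE 0.68, limma adjusted p = 0.0162) and 31 d (mean 1.78, SE 0.55, limma adjusted p = 0.0146). MIRLET7C 5p was called at 3 d alone (mean 1.88, SE 0.66, limma adjusted p = 0.0345) on the deposited scale. In total 3 of 5 related arms were called higher at 3 d, against 30.2% of all features, 1 lower at 13 d, against 30.9%, and 1 higher and 1 lower at 31 d, against 7.27% and 28.8%. After centring 0 of 5 were called at 3 d, where 9.04% of features were called higher. At 13 d 1 was called lower, against 29.1% of features. At 31 d 3 were called higher, against 15.8%, and 1 lower, against 229 of 1018 features. On the deposited scale the medians of the 5 related arms were 1.85 at 3 d, 0.14 at 13 d and 0.87 at 31 d. Those of the 7 arms of the 4 hairpins were -0.84 and -0.80 on the later days. MIR125B1 and MIR125B2, the paralogs of MIR125A, each had 1 alignment of the 5p arm above 0 in all 8 tables and so were not tested; miR-125b-5p comes from both loci. In the authors' deposited tables the alignment spanning miR-125b-5p at MIR125B1 had ratios of 2.33 and 1.52 in the 3 d tables, 0.541, 1.49 and 0.223 in the 13 d tables, and 0.624, 0.475 and 0.540 in the 31 d tables. These stand beside the ratios of miR-125a-5p, of the same seed, which were above 1 in every table.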

How the data were processed

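Small RNA libraries of K562 cells were compared as Dox and water pairs in 8 deposited tables. The submitters' processing notes name Bowtie2 2.2.9 and the build hg19 (GRCh37); the sources used here do not state how adapters were trimmed or how reads with several positions were placed. The authors' deposited ratio, a quotient of library-scaled values, was the only value used. The other 32 value columns, 4 per table, carry no library name and enter no result, so depth and counting error are not given.

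Starts in the tables count from 0 and are printed 1-based. Alignments of 18 to 26 nt with a ratio above 0 in all 8 tables were chained by 5′ ends within 3 nt on a strand into features; the arms of the hairpins (windows extended by 3 nt, 5p or 3p by midpoint) replaced the features they overlap. The median log2 ratio per table of each feature with at least 3 alignments was fitted with limma 3.58.1 (R 4.3.3, robust empirical Bayes, 1 mean per day, adjustment over 1018 features at 0.05). A ratio of 0 has no logarithm, so an arm's value leaves out alignments with no numerator reads. Alignments not listed in all 8 tables are left out as well. Within-table differences were tested by exact sign-flip permutation. Both tests were tested on simulated data. Named are the arms of the 4 hairpins and of 7 related hairpins; pairs picked later are named as such. The members and lists were chosen with earlier results of these data known. RefSeq sequences (GRCh38.p14) were matched by hairpin name and placed by offset; no coordinates were converted. Alternatives covered scaling, filters, lengths, the summary, the spread, the replicate number and each table left out; centring by length and leaving out 13 d replicate 3 with 31 d replicate 2 were added after seeing the data.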

Additional observations from a re-analysis of the deposited data

Results flagged for a closer look

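A difference between days passed the test of the difference itself (limma contrast, adjusted p of 0.05 or less) for 5 arms, in both contrasts with 3 d. The log2 ratio of 13 d minus that of 3 d was -4.25 for MIR10A 5p, -3.03 for MIR10A 3p, -3.73 for MIR10B 5p, -3.82 for MIR99B 3p and -3.04 for MIR99B 5p. The log2 ratio of 31 d minus that of 3 d was -3.64 for MIR10A 5p, -2.89 for MIR10A 3p, -3.97 for MIR10B 5p, -2.91 for MIR99B 3p and -2.11 for MIR99B 5p. The medians of all features moved in the same direction, by -1.19 and -1.78, and the part of these table shifts in the differences was not tested beyond the centred values given above. No group had the 4 tables needed to look for a table far from the others.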

How the results depend on the processing

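The number of arms called moved with scaling and with single tables. Of 6 arms called at 3 d, 0 were called with each table centred on its median, 0 with centring by length, 2 with each day fitted alone, and 0 to 6 with 1 table left out (0 without 3 d replicate 3). Of 2 called at 13 d, 0 to 3 were called with 1 table left out (0 without 13 d replicate 3) and 0 without 13 d replicate 3 and 31 d replicate 2 together. Of 0 called at 31 d, 2 were called with either centring, 1 with alignments of 20 to 24 nt, 1 with the day fitted alone, and 0 to 1 with 1 table left out. Of 5 arms that differed between 13 d and 3 d, 3 did so centred on the median (MIR10A 5p, MIR10B 5p and MIR99B 3p), 3 centred by length (MIR10A 5p, MIR99B 3p and MIR99B 5p) and 2 to 6 with 1 table left out (2 without 3 d replicate 3). Of 5 that differed between 31 d and 3 d, 0 did so with either centring and 2 to 6 with 1 table left out (2 without 3 d replicate 3, 3 without 31 d replicate 2). Features called were 366 at 3 d, against 1838 with at least 1 alignment, 164 with at least 5, 181 with the day fitted alone and 103 to 414 with 1 table left out (103 without 3 d replicate 3). They were 456 at 13 d, against 1876 with at least 1 alignment, 217 with at least 5 and 353 to 467 with 1 table left out, and 367 at 31 d, against 1174, 186 and 224 to 390 (224 without 31 d replicate 2). With at least 1 or at least 5 alignments the number of features tested itself changes; the cause of the other moves was not tested.

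Values whose sign changed were MIR99B 5p at 31 d, 0.16, which was -0.038 at 20 to 24 nt, -0.29 with the mature 5′ end alone and -0.0084 to 0.40 with 1 table left out (lowest without 31 d replicate 3). MIR99B 3p at 31 d was 0.11 with centring by length. MIR125A 3p at 13 d was -0.37 with the mature end alone. The difference of 31 d minus 3 d for MIR125A 5p was 0.58 centred, 0.68 centred by length and -2.78 to 0.20 with 1 table left out (highest without 3 d replicate 3), and for MIR125A 3p 0.76 centred and 0.65 centred by length; for the latter arm 13 d minus 3 d was 0.18 centred by length. MIRLET7E 5p at 3 d was -0.11 with either centring. At 13 d it was 0.35 centred, 0.30 centred by length, 0.15 as a mean over alignments, 0.52 without 13 d replicate 3 and 31 d replicate 2 together, and -0.53 to 0.52 with 1 table left out. MIR100 5p at 31 d was -0.30 to 0.91 with 1 table left out (lowest without 31 d replicate 3). MIRLET7C 5p at 13 d was -0.033 at 20 to 24 nt and -0.090 to 0.49 with 1 table left out (lowest without 13 d replicate 1). MIR10A 5p minus MIR10A 3p was 0.057 at 20 to 24 nt and 0.17 with the mature end alone.

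With 1 table left out, the within-table differences ranged over -0.35 to -0.046 for the arms of MIR10A, 0.73 to 1.10 for those of MIR99B, 0.32 to 0.59 for those of MIR125A, -0.68 to -0.44 for MIR10A 5p minus MIR10B 5p, and 1.30 to 1.47 for MIR125A 5p minus MIR99B 5p. With the replicate number added as a replicate block, 285, 461 and 384 features and 5, 2 and 0 arms were called at 3, 13 and 31 d, and 5 and 4 arms differed between the later days and 3 d. Deviations of same-numbered tables of 13 d and 31 d correlated at 0.392, -0.180 and 0.0632. Those of tables with unlike numbers correlated at -0.406 to 0.327. So few pairs cannot decide whether the numbers pair tables across days, and the 3 d tables were not compared. The within-table tests treat the tables of 13 d and 31 d as independent. Without counts, the depth behind a ratio is unknown and no limit from it can be stated.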
